A study of Mus musculus with 8 samples.

Results

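The genes described here encode the enzymes that place and remove methyl groups on lysine 4 of histone H3, written H3K4. There were 10 of them, 6 methyltransferases or writers (Kmt2a, Kmt2b, Kmt2c, Kmt2d, Setd1a and Setd1b) and 4 demethylases or erasers (Kdm5a, Kdm5b, Kdm5c and Kdm1a), chosen by name. All 10 were found among the 15538 genes of the deposited table by their Ensembl gene identifiers, and each had a symbol in the mouse annotation. Expression was measured by bulk polyA RNA sequencing of primary mouse neurospheres, which are floating clusters of cultured embryonic neural stem cells. By the labels, 4 libraries came from cells with genotype Phf23-/- and 4 from wild-type cells. The labels give no age, strain, sex or targeting strategy, and do not say whether replicates are separate cultures or animals. The p-values below therefore cover variation among these libraries alone, and it may be technical.

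H3K4 methylation marks enhancers and the starts of active genes. Trimethylation sits at active promoters and is placed mainly by the SETD1A and SETD1B complexes, with KMT2B acting at many developmental promoters and KMT2A at a smaller set of targets, while KMT2C and KMT2D place the monomethyl mark of enhancers. All 6 writers need a shared core of WDR5, RBBP5, ASH2L and DPY30. KDM5A, KDM5B and KDM5C are oxygen-dependent demethylases that take off the trimethyl and dimethyl marks, and KDM1A, also called LSD1, takes off the dimethyl and monomethyl marks as part of the CoREST complex. The PHD finger of human PHF23 reads trimethylated H3K4, so the targeted gene belongs to the same system. In people, loss of a copy of several of these genes causes disorders of brain development.

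The writers form 3 pairs of paralogs and the KDM5 genes are paralogs of each other, so reads could in principle be assigned to the wrong copy. The longest stretch of identical bases between the longest annotated transcripts of 2 paralogs is shown because it says how much sequence such a read could share. All of these stretches lie in coding sequence in both genes, and the capitals mark bases identical in both.
Kmt2a and Kmt2b: GAGAGCAAGATGATGCAGTG
Kmt2c and Kmt2d: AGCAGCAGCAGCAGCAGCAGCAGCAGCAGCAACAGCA
Setd1a and Setd1b: ATGCCCATGTCCTTCCAGATGCA
Kdm5a and Kdm5b: GGAGACTGGAGGTGTCCTAA
Kdm5c and Kdm5d: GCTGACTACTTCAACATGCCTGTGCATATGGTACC
They measure 20, 37, 23, 20 and 35 bases. The stretch in Kmt2c and Kmt2d is a CAG-type repeat. Kdm5a and Kdm5c, and Kdm5b and Kdm5c, share stretches of 32 bases each. Of all words of 32 bases in Kmt2a, Setd1a and Kdm5a, 0 occurred in Kmt2b, Setd1b and Kdm5b. Kmt2c shared 6 of its 14936 words with Kmt2d, the most of these pairs, Kdm5a and Kdm5b shared 1 each with Kdm5c, and 4 of the 6418 such words of Kdm5c occurred in its Y-linked copy Kdm5d. Overlap with other genes was more of a limit than paralogy for Setd1a. An annotated same-strand gene, Gm49388, which is not in the deposited table, covers 51.9% of its exonic bases. The read counter is not given in the sources used here, so how reads in that overlap were treated is unknown.

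The start regions of 4 members are shown because most genes that carry promoter H3K4 trimethylation start in sequence rich in CG pairs, which the CXXC domains of KMT2A, KMT2B and the SETD1 partner CXXC1 bind. They are those of the 3 called members with an entry in the RefSeq promoter table (GRCm38.p6), Kmt2a, Kmt2c and Kdm5c, and of Kdm1a, which was not called. Each runs from 250 bases before to 50 after the annotated start, 5′ to 3′ on the gene's strand, with each CG in capitals.
Kmt2a, chr9:44881240-44881539, minus strand: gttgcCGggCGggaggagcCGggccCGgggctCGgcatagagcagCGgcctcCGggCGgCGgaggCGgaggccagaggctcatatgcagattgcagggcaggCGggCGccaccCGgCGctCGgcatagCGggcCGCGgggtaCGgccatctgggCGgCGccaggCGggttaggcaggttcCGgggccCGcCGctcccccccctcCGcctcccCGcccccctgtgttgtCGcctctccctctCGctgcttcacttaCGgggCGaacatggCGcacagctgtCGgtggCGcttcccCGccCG
Kmt2c, chr5:25498734-25499033, minus strand: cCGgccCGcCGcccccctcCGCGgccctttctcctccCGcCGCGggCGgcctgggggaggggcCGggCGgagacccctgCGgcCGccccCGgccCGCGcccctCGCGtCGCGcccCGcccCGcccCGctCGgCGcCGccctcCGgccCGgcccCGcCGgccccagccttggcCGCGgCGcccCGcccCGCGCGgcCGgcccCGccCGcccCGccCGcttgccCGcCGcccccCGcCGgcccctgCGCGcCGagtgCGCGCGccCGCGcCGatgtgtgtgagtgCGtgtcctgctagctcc
Kdm5c, chrX:152232977-152233276, plus strand: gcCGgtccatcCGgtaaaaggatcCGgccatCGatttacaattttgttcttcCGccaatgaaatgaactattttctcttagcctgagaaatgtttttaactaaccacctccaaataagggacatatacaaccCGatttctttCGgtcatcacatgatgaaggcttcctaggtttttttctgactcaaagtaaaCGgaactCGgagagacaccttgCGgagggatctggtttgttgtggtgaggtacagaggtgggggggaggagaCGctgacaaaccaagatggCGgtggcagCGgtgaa
Kdm1a, chr4:136602674-136602973, minus strand: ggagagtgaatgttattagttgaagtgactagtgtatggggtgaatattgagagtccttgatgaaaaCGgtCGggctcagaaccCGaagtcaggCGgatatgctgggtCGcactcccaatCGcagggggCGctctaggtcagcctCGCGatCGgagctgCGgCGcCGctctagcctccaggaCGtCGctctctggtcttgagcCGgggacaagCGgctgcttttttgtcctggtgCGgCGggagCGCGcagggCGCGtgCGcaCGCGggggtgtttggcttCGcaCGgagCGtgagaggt
The motif searched was CG, which reads the same on both strands. It occurred 36 times in the Kmt2a window, 56 in Kmt2c, 13 in Kdm5c and 29 in Kdm1a, against a median of 7 over the 32851 windows of the table, 94.6% of which held at least 1. Entries were found for 7 of the 10 members, and the counts in Setd1a, Kmt2d and Kdm5b were 35, 27 and 17. RNA counts do not measure any mark at these windows, and a match is a description of sequence only.

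Reads recovered per library numbered 18099114 to 19462516 with the knockout label and 15647304 to 18241215 with the wild-type label. The libraries are called knockout 1 to 4 and wild type 1 to 4 by label. Phf23 itself went against its label. It averaged 1481 ± 108 normalised reads in the libraries labelled knockout and 798 ± 85.4 in those labelled wild type (SD, n = 4 each, limma-trend FDR = 0.000581). Each direction below is therefore between libraries as labelled, and a total over the gene would not show the loss of some of its exons. All 11 neural stem cell markers checked were measured, among them Sox2, Nes and Pax6. Their summed level ran from 159582 to 202960 normalised reads in the libraries labelled knockout and from 138393 to 148470 in those labelled wild type. Most of this sum was Vim and Fabp7. Vim, Sox2, Nes, Pax6, Slc1a3, Sox9 and Prom1 overlapped between the genotypes. Of the 11, limma-trend called 4 higher and 0 lower, where 14.8% of all genes were called in each direction. For 6 young neuron markers the sums were 9298 to 12164 and 15226 to 20449, and for 4 astrocyte markers 2268 to 2532 and 3059 to 3732, in the same order. Both sums follow 1 gene each. Map2 had 8826 to 11634 and 14807 to 20025 normalised reads and Aldh1l1 1392 to 1615 and 2318 to 2997, while Rbfox3, Neurod1, Gfap and S100b were higher in every library labelled knockout than in any labelled wild type. By the test, 2 neuron markers were higher and 1 lower, and 2 astrocyte markers were higher and 2 lower, so these lists show no common direction. Oligodendrocyte lineage markers summed to 60696 to 74728 and 48043 to 69413, 3 of 5 endothelial markers to 56.8 to 70.4 and 34.9 to 67.2, and 2 of 5 fibroblast or meningeal markers to 14.4 to 38.2 and 8.83 to 28.8. The microglial marker P2ry12 had 14.4 to 17.9 and 15.7 to 48.4 normalised reads, and Aif1, Cx3cr1, Csf1r, Ptprc and Tmem119 are not in the table. Over all genes at a false discovery rate (FDR) under 0.05, 2301 were called higher with the knockout label and 2292 lower. Scaling by library totals alone gave 1827 (11.8%) higher and 2757 (17.7%) lower. In bulk RNA, fewer cells of a type and less RNA per cell cannot be told apart, and the part of the marker differences in the results below was not tested.

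As deposited, 4 of the 10 genes fell and none of the 10 rose (2 writers, Kmt2a and Kmt2c, and 2 erasers, Kdm5a and Kdm5c), where 14.8% of all genes tested were called higher and 14.8% lower. The log2 fold change was below 0 for 9 of the 10, with a median of -0.39 against 0.00 for all genes. Kdm1a, which has the shortest transcript of the 10, was the exception. The members are long: their longest annotated transcripts run from 3028 to 19823 nt, where the median is 3475 nt over genes averaging 10 normalised reads or more. Values are normalised reads, that is read counts divided by the authors' size factor for the library, and a fold change is a difference of log2(value + 1).

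With 1 library left out, the number of members called lower was 1, 2, 3 and 6 without knockout 1 to 4, where 6.02%, 10.5%, 11.4% and 18.9% of all genes were. It was 2, 2, 4 and 4 without wild type 1 to 4, where 7.00%, 6.78%, 12.2% and 15.2% were. Other scalings, pseudocount, minimum and count tests gave 4 members each, where 14.8% of genes were called lower with TMM scaling, 17.7% with library totals, 14.5% with a pseudocount of 0.1, 17.7% with a minimum mean of 10, 17.2% with edgeR, 17.4% with limma-voom and 17.7% with DESeq2.

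**Figure D1:**
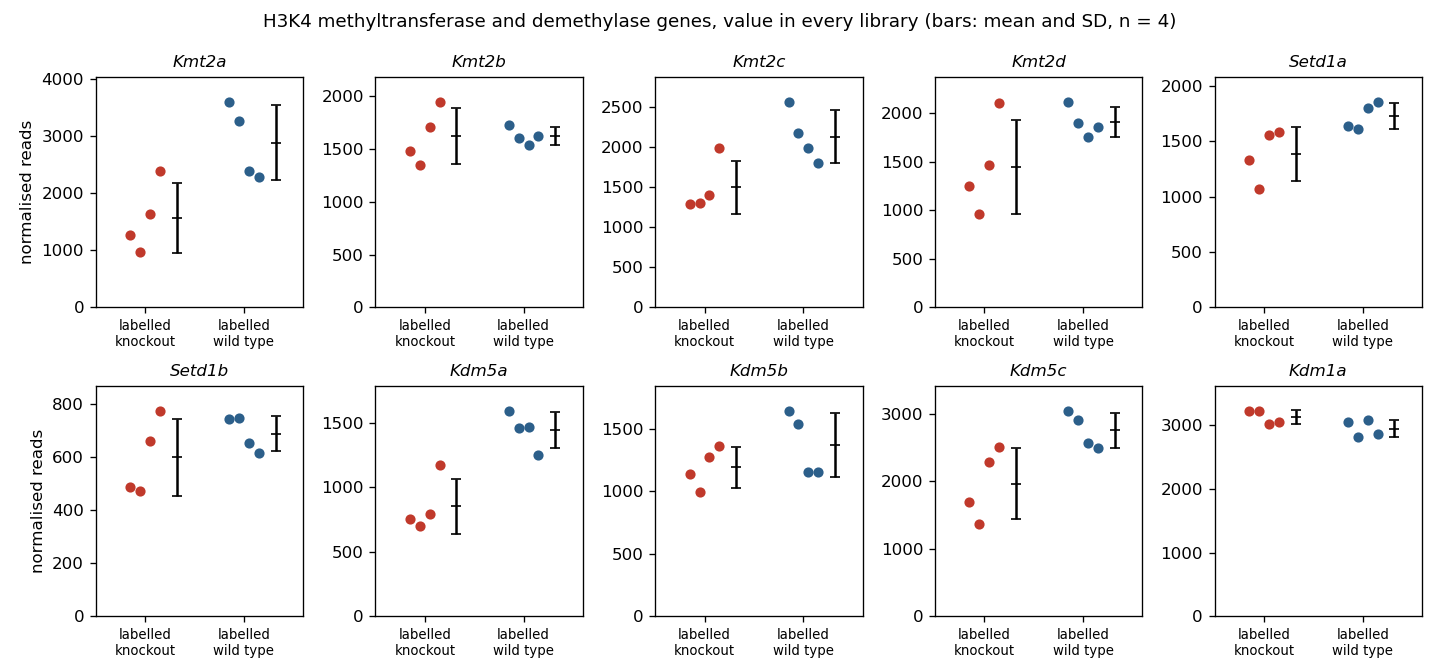
Normalised reads (vertical axis, from 0) of the 10 genes in every library, with replicates 1 to 4 from left to right and the mean and SD beside them. Kdm5a and Setd1a are the genes whose libraries labelled knockout all lie below those labelled wild type, and replicate 4 is the highest library labelled knockout for each gene except Kdm1a.

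Kmt2a had the largest fall of the 10. KMT2A, also called MLL1, is the founding mammalian writer and is needed for neurogenesis from postnatal mouse neural stem cells. Kmt2a (ENSMUSG00000002028, chromosome 9, 44803355 to 44881296, minus strand, mm10) stood at 1264, 977, 1634 and 2382 normalised reads in knockout 1 to 4, against 3597, 3270, 2391 and 2282 in wild type 1 to 4. The groups overlapped through knockout 4, which stood above wild type 4. The means were 1564 ± 608 and 2885 ± 649 (SD, n = 4 each), 1.84-fold lower, with a log2 fold change of -0.93 ± 0.233 (SE, 95% interval -1.44 to -0.43, limma-trend FDR = 0.0137). Without knockout 1 the call ended (log2 -0.86, limma-trend FDR = 0.0528).

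Its paralog Kmt2b did not pass the test. Kmt2b (ENSMUSG00000006307, chromosome 7, 30568858 to 30588726, minus strand) measured 1479, 1347, 1709 and 1948 normalised reads in knockout 1 to 4, against 1731, 1610, 1535 and 1623 in wild type 1 to 4. The knockout libraries lay on both sides of the wild-type ones. The log2 fold change was -0.02 ± 0.118 (SE, 95% interval -0.27 to 0.24, limma-trend FDR = 0.932).

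Of the enhancer writers, Kmt2c fell and Kmt2d missed the threshold. Kmt2c (ENSMUSG00000038056, chromosome 5, 25271798 to 25498783, minus strand) measured 1288, 1299, 1404 and 1990 normalised reads in knockout 1 to 4, against 2563, 2169, 1987 and 1799 in wild type 1 to 4. Only knockout 4 reached the wild-type range. The log2 fold change was -0.52 ± 0.150 (SE, 95% interval -0.85 to -0.20, limma-trend FDR = 0.0227), and the call ended without knockout 1, 2 or 3 or without wild type 1 or 2 (limma-trend FDR from 0.0546 to 0.0786). Kmt2d (ENSMUSG00000048154, chromosome 15, 98831669 to 98871204, minus strand), whose transcript of 19823 nt is the longest of the 10, had 1251, 963 and 1462 normalised reads in knockout 1 to 3 and 2107 in knockout 4, against 1754 to 2114 in the libraries labelled wild type. Its log2 fold change was -0.45 ± 0.186 (SE, limma-trend FDR = 0.0829), and -0.65 without knockout 4 (limma-trend FDR = 0.00257).

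The writers of bulk promoter trimethylation did not pass the test. Setd1a (ENSMUSG00000042308, chromosome 7, 127776670 to 127800122, plus strand) measured 1328, 1066, 1551 and 1585 normalised reads in knockout 1 to 4, against 1640, 1610, 1798 and 1853 in wild type 1 to 4. The groups did not overlap, as was so for 14.2% of all genes in that direction. The log2 fold change was -0.33 ± 0.128 (SE, limma-trend FDR = 0.0644), and it was called without knockout 4 (log2 -0.41, limma-trend FDR = 0.0221). Setd1b (ENSMUSG00000038384, chromosome 5, 123142193 to 123168629, plus strand) was the least abundant member, with 473 to 775 normalised reads in the libraries labelled knockout and 614 to 747 in those labelled wild type. Its log2 fold change was -0.23 ± 0.157 (SE, limma-trend FDR = 0.292).

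Among the erasers, Kdm5a had the largest fall as deposited. KDM5A, or RBP2, was found as a partner of the retinoblastoma protein and takes methyl groups off promoters of cell cycle and differentiation genes. Kdm5a (ENSMUSG00000030180, chromosome 6, 120364124 to 120444574, plus strand) measured 755, 699, 795.5 and 1169 normalised reads in knockout 1 to 4, against 1592, 1463, 1464 and 1253 in wild type 1 to 4. All 4 knockout libraries stood below all 4 wild-type ones. The means were 855 ± 213 and 1443 ± 140.5 (SD, n = 4 each), 1.69-fold lower, with a log2 fold change of -0.78 ± 0.150 (SE, 95% interval -1.11 to -0.45, limma-trend FDR = 0.00598). Kdm5a kept its call when any 1 library was left out, but not with length taken into account, as given below.

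Kdm5c, an X-linked eraser whose loss causes intellectual disability in people, also fell. Kdm5c (ENSMUSG00000025332, chromosome X, 152233020 to 152274535, plus strand) measured 1697, 1371, 2288 and 2517 normalised reads in knockout 1 to 4, against 3047, 2912, 2567 and 2498 in wild type 1 to 4. Knockout 4 was above wild type 4, and the other 3 knockout libraries were below every wild-type one. The log2 fold change was -0.52 ± 0.167 (SE, 95% interval -0.88 to -0.16, limma-trend FDR = 0.0338), and the call ended without knockout 1 or 2 or wild type 1 or 2 (limma-trend FDR from 0.0736 to 0.105). Kdm5c escapes X inactivation in the mouse, so the sex of the cells bears on its level. Xist had 0 to 4.89 normalised reads in the libraries labelled knockout and 0 to 7.75 in those labelled wild type, and the Y-linked gene Eif2s3y had 1140 to 1481 and 1268 to 1609. Each of the 8 libraries thus held Y-linked transcripts and almost no Xist. Kdm5d, the Y-linked copy, fell as Kdm5c did, with 549.8 ± 108 normalised reads in the libraries labelled knockout and 841 ± 95.1 in those labelled wild type (SD, n = 4 each, log2 -0.63 ± 0.144, limma-trend FDR = 0.0104). It was not called with the trend described below subtracted (log2 -0.11, limma-trend FDR = 0.367), with the slope covariate (log2 -0.12, FDR = 0.83) or with replicates 3 and 4 alone (log2 -0.26, FDR = 0.201). The log2 ratio of Kdm5c to Kdm5d per kb was 2.13 ± 0.22 and 2.02 ± 0.026 (SD, n = 4 each) in the same order, with overlap.

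Kdm5b and Kdm1a did not pass the test. Kdm5b (ENSMUSG00000042207, chromosome 1, 134560171 to 134635285, plus strand), which encodes a demethylase abundant in stem cells, measured 1135, 993, 1270 and 1363 normalised reads in knockout 1 to 4, against 1641, 1536, 1151 and 1149 in wild type 1 to 4. The log2 fold change was -0.19 ± 0.143 (SE, 95% interval -0.50 to 0.12, limma-trend FDR = 0.33). Kdm1a (ENSMUSG00000036940, chromosome 4, 136550540 to 136602723, minus strand) measured 3211, 3220, 3009 and 3052 normalised reads in knockout 1 to 4, against 3039, 2804, 3069 and 2855 in wild type 1 to 4. LSD1 is needed for the proliferation of mouse neural stem cells, and its gene was the most even of the 10 across libraries (log2 0.09 ± 0.0859, SE, 95% interval -0.10 to 0.27, limma-trend FDR = 0.474).

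The libraries differed in how they represented long transcripts, and most members varied in the same order within the libraries labelled knockout. The length slope is the change of a library's log2 values per doubling of transcript length, relative to the mean of all libraries. The slope was fitted over 13265 genes averaging 10 normalised reads or more, and was -0.24, -0.31, -0.09 and 0.04 in the libraries labelled knockout 1 to 4 and 0.26, 0.20, 0.08 and 0.06 in those labelled wild type 1 to 4. In the libraries labelled knockout, 8 of the 10 members were ordered exactly as the slopes, with knockout 2 lowest and knockout 4 highest. In those labelled wild type, only Kmt2a, Kmt2c, Kdm5b and Kdm5c did so, and Setd1a was highest in wild type 4, whose slope was the lowest there. The share of all genes in slope order was not computed. Knockout 4 and wild type 4, whose slopes are close, had 2382 and 2282 normalised reads of Kmt2a, 1990 and 1799 of Kmt2c, and 2517 and 2498 of Kdm5c. For Kdm5a they had 1169 and 1253, and for Setd1a 1585 and 1853. Knockout 4 lay within the wild-type range for 6 members, below it for Setd1a and Kdm5a, and above it for Kmt2b and Setd1b.

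**Figure D2:**
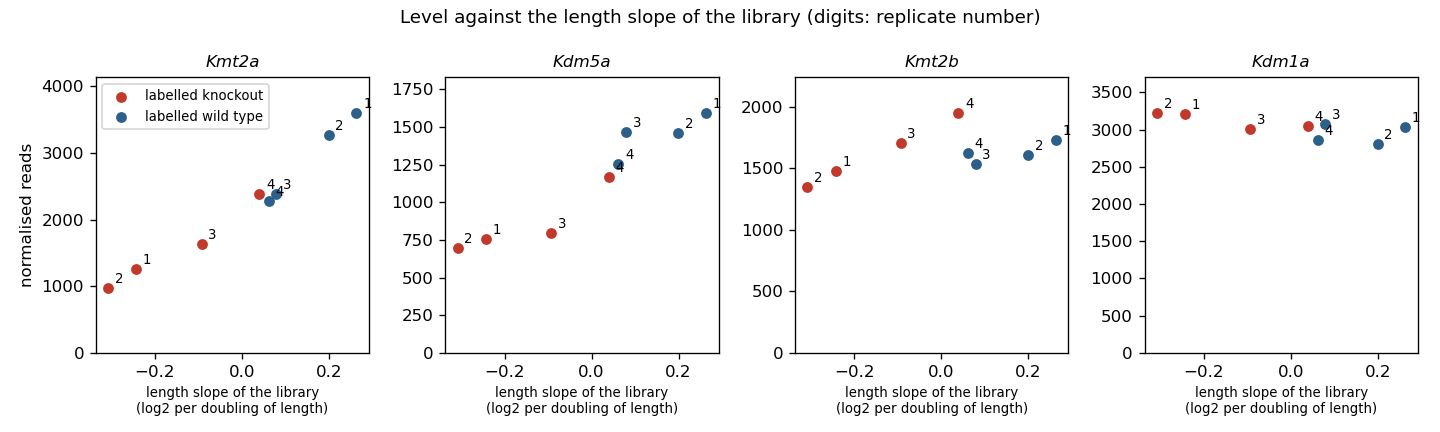
Normalised reads (vertical axis, from 0) of Kmt2a, Kdm5a, Kmt2b and Kdm1a against the length slope of each of the 8 libraries (horizontal axis, log2 per doubling of transcript length), with replicate numbers beside the points. Kmt2a is lowest where the slope is lowest and highest where it is highest, while Kdm1a stays between 2804 and 3220 reads.

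Each member was therefore set beside all genes whose longest transcript is within 1.2-fold of its own and which average 10 normalised reads or more. For Kmt2a these were 80 genes, with a median log2 fold change of -0.70 (5th to 95th percentile -1.19 to 0.28), of which 65.0% were called lower and 22.5% lay below Kmt2a. For Kdm5a they were 410 genes with a median of -0.54 (percentiles -1.07 to 0.16), of which 60.7% were called lower and 17.3% lay below it. For Kdm5c they were 1757 genes with a median of -0.34, and 25.95% lay below it. Kmt2a, Kdm5a and Kdm5c thus lay below the median of genes of like length but inside their spread. Kmt2c, at -0.52, was above the median of its 118 neighbours, -0.62, and Kmt2d, at -0.45, above that of its 22, -0.66. Setd1a and Kdm1a sat close to their medians, with 51.1% and 52.6% of like-length genes below them. Kmt2b was high for its length, with 88.6% of 941 genes below it (median -0.48), as were Kdm5b with 79.0% of 862 and Setd1b with 76.7% of 818 (medians -0.48 and -0.48).

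**Figure D3:**
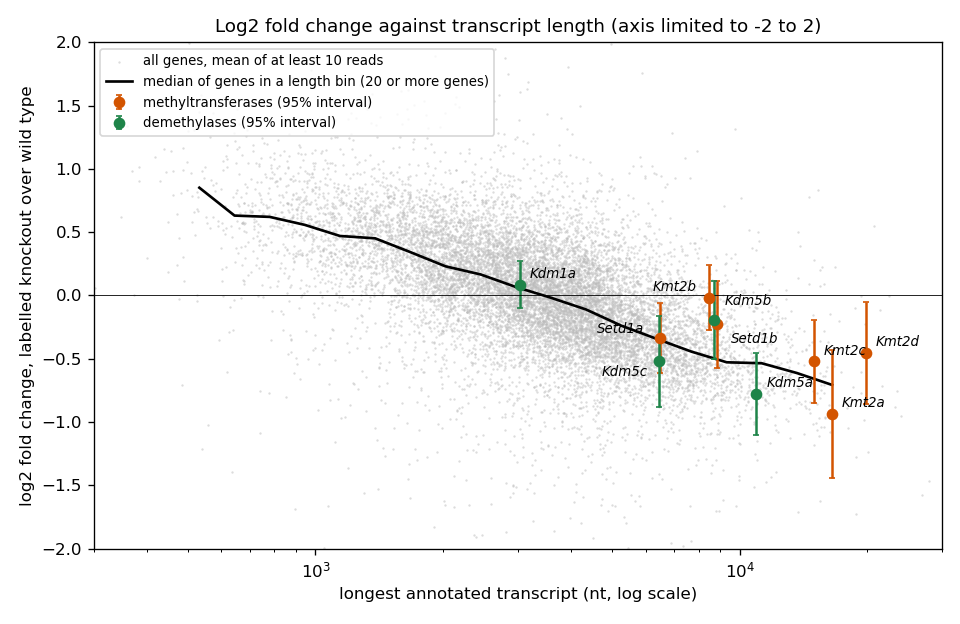
Log2 fold change of labelled knockout over wild type (vertical axis) against the longest annotated transcript (horizontal axis, nt, log scale) for genes averaging 10 normalised reads or more, with the median by length bin as a line and the 10 members with their 95% intervals. The members follow the falling line, with Kmt2b, Kdm5b and Setd1b above it and Kmt2a and Kdm5a below it.

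The same comparison was made library by library, as each member's log2 deviation from its own mean less the median deviation of genes of like length. Kmt2b was at 0.23, 0.18, 0.23 and 0.21 in the libraries labelled knockout and at -0.31, -0.30, -0.20 and -0.08 in those labelled wild type. The knockout values were nearly equal and all above the wild-type ones. Kdm5b averaged 0.13 ± 0.069 and -0.14 ± 0.127 and Setd1b 0.11 ± 0.127 and -0.12 ± 0.0567 (SD, n = 4 each) in the same order, also without overlap. Kdm5a went the other way without overlap, at 0.01 or below in each library labelled knockout and at 0.04 or above in each labelled wild type (means -0.13 ± 0.116 and 0.13 ± 0.112, SD). Kmt2a averaged -0.15 ± 0.236 and 0.14 ± 0.115, with overlap, because knockout 4 was at 0.12. Among 13264 genes treated alike, 13.0% had knockout above wild type without overlap and 12.6% below, where 3 and 1 of the 10 members did. The GC content of these genes differs, from 43.3% in Kdm5a to 59.1% in Kmt2b. Beside genes within 1.5-fold in length and 3 percentage points in GC, 69.1% lay below Kmt2b, 77.2% below Kdm5b and 41.9% below Setd1b, so the position of Setd1b turned below the median. Setd1a also turned, with 24.4% below it. Within 1.5-fold in length and without the GC limit, 44.0% already lay below Setd1a, and 71.3% below Setd1b. With both limits, 12.5%, 20.5% and 16.9% lay below Kmt2a, Kdm5a and Kdm5c.

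**Figure D4:**
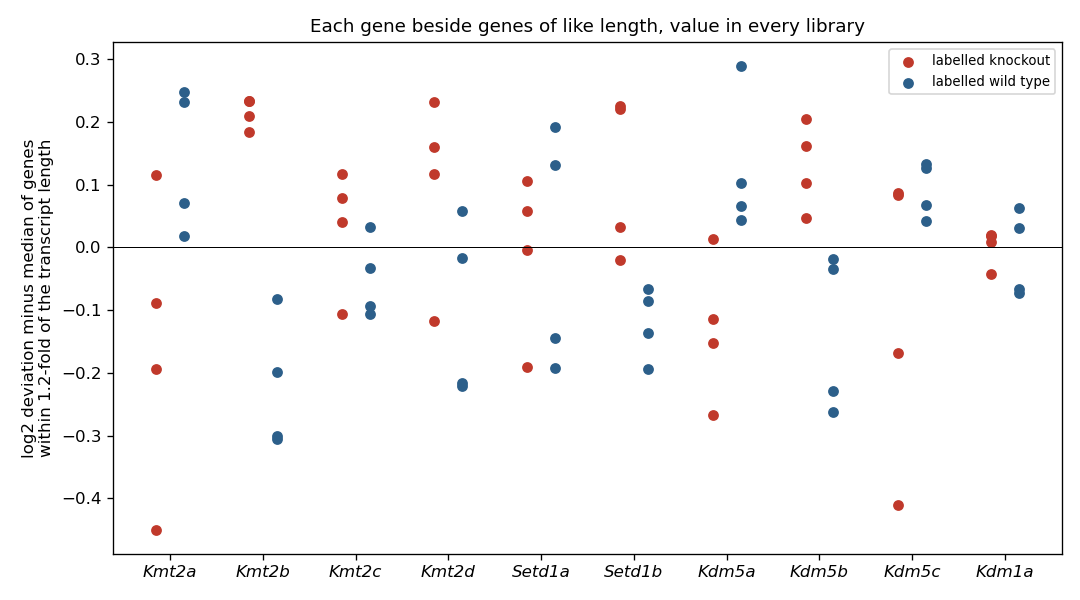
Log2 deviation of each member less the median deviation of genes within 1.2-fold of its transcript length (vertical axis) in every library, labelled knockout left of labelled wild type. Kmt2b, Setd1b and Kdm5b stand higher and Kdm5a lower in the 4 libraries labelled knockout, without overlap.

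A pair of fits took account of length, and none of the 4 falls was called by limma-trend in either. With a trend with length and GC content subtracted from each library, 0 of the 10 members were called lower, where 7.24% of all genes were, and 2 were called higher, where 10.7% were. These were Kmt2b (log2 0.25 ± 0.0663, SE, limma-trend FDR = 0.0206) and Kdm5b (log2 0.31 ± 0.0768, SE, limma-trend FDR = 0.0145). Kmt2a was at -0.30 ± 0.104 (limma-trend FDR = 0.0614), Kdm5c at -0.25 ± 0.0966 (FDR = 0.0881) and Kdm5a at -0.15 ± 0.0879 (FDR = 0.25), while Kmt2c turned to 0.15 (FDR = 0.154). The median of the 10 was 0.03. With the slope entered as a covariate, 0 members were called by limma-trend, where 1.09% of all genes were. Kmt2a was at 0.11 ± 0.113 (SE). Kmt2b, Setd1b and Kdm5b, at 0.36, 0.36 and 0.31, had an unadjusted limma-trend p under 0.05. The share of all genes with such a p was not computed. All 4 slopes of libraries labelled knockout lay below all 4 of those labelled wild type, so slope and genotype cannot be fully told apart.

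Another fit used replicates 3 and 4 alone, whose slopes are mildest but still lower with the knockout label, and has no length term. There Kdm5a was called lower (log2 -0.49 ± 0.116, SE, limma-trend FDR = 0.000995), where 4.54% of all genes were and 4.61% were higher. It was the 1 member called in that fit. Kmt2a was at -0.24 ± 0.108 (FDR = 0.151), Kmt2c at -0.18 (FDR = 0.352), Kdm5c at -0.08 (FDR = 0.739), Kmt2b at 0.21 (FDR = 0.25) and Kdm5b at 0.19 (FDR = 0.324). With so few libraries these FDRs rest mostly on variance shared across genes. Kmt2b, Setd1b, Kdm5b and Kdm1a were above 0, and Kdm5a and Setd1a below 0, in each of the 3 fits.

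**Figure D5:**
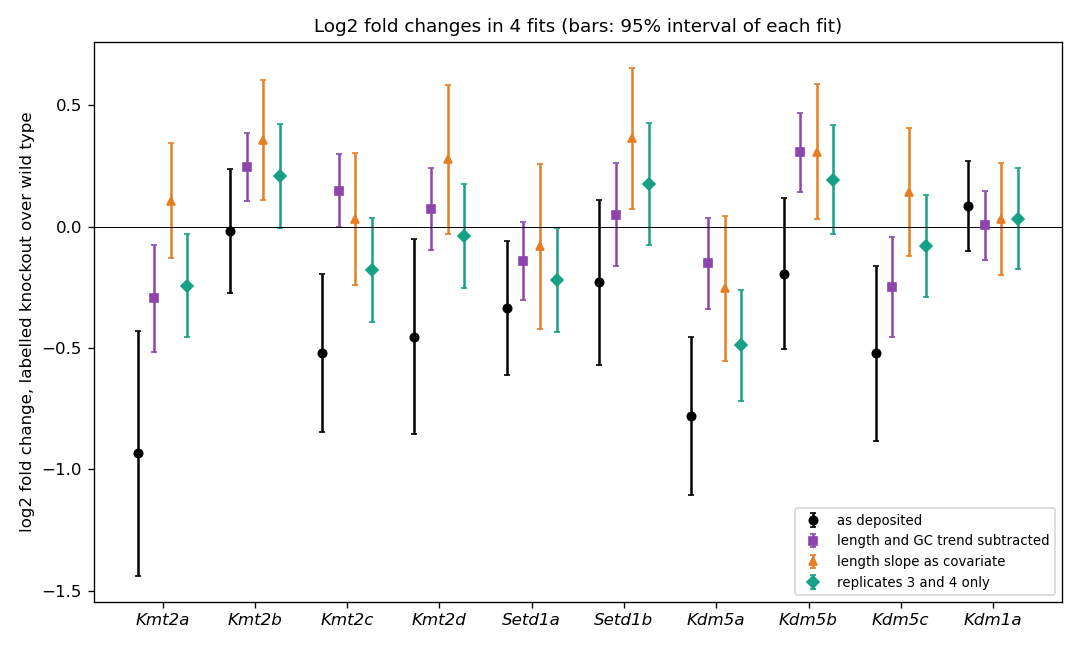
Log2 fold change of labelled knockout over wild type (vertical axis) for the 10 members in the fit of the values as deposited and in 3 others, of which 2 model transcript length and 1 uses replicates 3 and 4 alone, with the 95% interval of each fit. Kdm5a is below 0 in all 4 fits, Kmt2b and Kdm5b are above 0 in the other 3, and Kdm1a stays near 0.

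Levels of different genes were compared as normalised reads per kb of the longest transcript. Kdm1a was the highest member, with 1031 ± 35.9 in the libraries labelled knockout and 972 ± 43.5 in those labelled wild type, followed by Kdm5c with 305 ± 81.8 and 427 ± 41.1 and Setd1a with 213 ± 37.0 and 266 ± 18.3 (SD, n = 4 each). In the libraries labelled wild type the order below these was Kmt2b, Kmt2a, Kdm5b, Kmt2c, Kdm5a, Kmt2d and Setd1b, from 192 ± 9.57 to 77.8 ± 7.46. There the ranges of neighbours overlapped from Kmt2b down to Kdm5a and not elsewhere. In the libraries labelled knockout Kmt2a stood below Kdm5b and Kmt2c, at 94.98 ± 36.9 against 175 ± 39.4 in wild type, and only Kdm1a and Kdm5c, and Kmt2b and Kdm5b, were neighbours without overlap. This order depends on the length used. Per kb of the union of all exons, Kmt2a stood above Kmt2c and Kdm5b in the libraries labelled knockout, at 93.8 against 73.7 and 71.9, and in those labelled wild type it stood above Kmt2b and Kdm5b was ninth.

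The balance within some paralog pairs differed between the genotypes; these ratios were not tested, and no share over other gene pairs was computed. The log2 ratio of Kmt2a to Kmt2b per kb was -1.19, -1.42, -1.02 and -0.67 in the libraries labelled knockout and 0.10, 0.06, -0.32 and -0.47 in those labelled wild type. The groups did not overlap, though these transcripts differ in length (16470 and 8469 nt). The log2 ratio of Kdm5a to Kdm5b averaged -0.83 ± 0.197 and -0.24 ± 0.192 (SD, n = 4 each) without overlap, for transcripts of 10944 and 8714 nt. That of Kdm5b to Kdm5c, with transcripts of 8714 and 6449 nt, averaged -1.13 ± 0.205 and -1.46 ± 0.135. Its groups were barely apart, at -1.3195 in knockout 4 and -1.3268 in wild type 1. That of Kdm5a to Kdm5c averaged -1.96 ± 0.236 and -1.70 ± 0.0865, with overlap. Kmt2c to Kmt2d, both very long, averaged 0.49 ± 0.238 and 0.56 ± 0.136, and Setd1a to Setd1b 1.67 ± 0.173 and 1.78 ± 0.238, with overlap in both pairs.

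Of the genes named outside the 10, Phf23 alone was called with the slope covariate (log2 0.65, limma-trend FDR = 0.0172), so every other call given below ended in that fit. Of the 4 genes of the writers' shared core, only the small dimerisation subunit gene Dpy30 was called, where 14.8% of all genes were called in each direction. Dpy30 had 896.5 ± 250 normalised reads in the libraries labelled knockout and 610 ± 57.1 in those labelled wild type (SD, n = 4 each, log2 0.52 ± 0.173, limma-trend FDR = 0.0400). Its transcript of 789 nt is short, and subtracting the trend left it at 0.06 (limma-trend FDR = 0.676). Wdr5, the scaffold of the core, was at 0.03, Ash2l at 0.01 and Rbbp5 at -0.27 (limma-trend FDR = 0.852, 0.962 and 0.131). Wdr5 and Ash2l took the opposite sign, -0.035 and -0.056, with scaling by library totals.

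Subunits particular to each complex moved both ways. Among the SETD1 subunits, Hcfc1, which encodes a host cell factor shared with the KMT2A and KMT2B complexes, fell to 3356 ± 940 normalised reads in the libraries labelled knockout, against 5143 ± 348 in those labelled wild type (log2 -0.66 ± 0.164, limma-trend FDR = 0.0137). It was called with the trend subtracted too (log2 -0.30, limma-trend FDR = 0.0230), but not with the covariate (log2 -0.03, FDR = 0.965) or replicates 3 and 4 alone (log2 -0.26, FDR = 0.113). Bod1l fell (log2 -0.72, FDR = 0.0127, and -0.13 with the trend subtracted) and its short relative Bod1 rose (log2 0.36, FDR = 0.0416, and -0.14 with the trend subtracted). The CpG-binding subunit gene Cxxc1 was at 0.28 (FDR = 0.0597) and Wdr82 at -0.02. Among the KMT2A and KMT2B partners, the menin gene Men1 rose (log2 0.40, FDR = 0.0300, and 0.20 with the trend subtracted, FDR = 0.122) and the LEDGF gene Psip1 fell (log2 -0.29, FDR = 0.0459, and -0.20 with the trend subtracted, FDR = 0.0466), while Hcfc2 was at -0.22. Of the KMT2C and KMT2D partners none of the 3 measured were called by limma-trend, where 14.8% of all genes were called in each direction. Of the 3, 2 had an unadjusted limma-trend p under 0.05, and the share of all genes that did was not computed. The H3K27 demethylase gene Kdm6a was at -0.45, Ncoa6 at -0.51 and Paxip1 at -0.16 (FDR = 0.0817, 0.0683 and 0.267).

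The partners of LSD1 had 1 gene higher and 3 lower of 11 measured, where 14.8% of all genes were called in each direction. Their median log2 fold change was -0.22. Hmg20b, a CoREST subunit gene, rose to 2401 ± 388 normalised reads in the libraries labelled knockout, against 1333 ± 315 in those labelled wild type (log2 0.87 ± 0.167, limma-trend FDR = 0.00596), without overlap. It was called at 0.53 with the trend subtracted (FDR = 0.00236) and at 0.41 with replicates 3 and 4 alone (FDR = 0.00453), but not with the covariate (log2 0.24, FDR = 0.593). The CoREST scaffold gene Rcor3 fell to 218 ± 25.3, against 322 ± 8.75 (log2 -0.56, FDR = 0.00825), and was called at -0.41 and -0.48 in those fits (FDR = 0.0246 and 0.0385), but not with the covariate (log2 -0.39, FDR = 0.449). Zmym2 and Phf21a fell as deposited (log2 -0.46 and -0.43, FDR = 0.0273 and 0.0395) and were at 0.06 and -0.13 with the trend subtracted.

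Of 9 further genes with an H3K4 methyltransferase or demethylase activity, 0 rose and 3 fell, where 14.8% of all genes were called in each direction. With the trend subtracted 1 was higher and 3 were lower, where 10.7% and 7.24% of all genes were. Among these, chosen after their values were seen, Smyd3 was at 0.56 (limma-trend FDR = 0.0166) and Smyd2 at -0.46 (FDR = 0.00705). Neither was called as deposited (log2 0.14 and -0.096, limma-trend FDR = 0.378 and 0.489). Nor was either called with replicates 3 and 4 alone (log2 0.02 and -0.13, limma-trend FDR = 0.963 and 0.604). Setd7, which encodes a monomethyltransferase with many non-histone substrates, measured 1062, 981, 1256 and 1612 normalised reads in knockout 1 to 4, against 2563, 2246, 1937 and 2112 in wild type 1 to 4. The groups were well apart, with a log2 fold change of -0.87 ± 0.148 (SE, limma-trend FDR = 0.00373), and it was called at -0.43 with the trend subtracted (FDR = 0.00156) and at -0.51 with replicates 3 and 4 alone (FDR = 0.000237), but not with the covariate (log2 -0.30, FDR = 0.334). Prdm9, the meiotic H3K4 writer, fell to 79.6 ± 17.97, against 140 ± 36.15 (log2 -0.80, FDR = 0.0183, and -0.72 with the trend subtracted, FDR = 0.0212), and Kdm5d is given above. Riox1 was at 0.35 (FDR = 0.226).

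A list of readers of H3K4 methylation had 3 genes higher and 11 lower of 25 measured, where 14.8% of all genes were called in each direction. The median of the list was -0.32 on the log2 scale. Subtracting the trend left 3 higher, 3 lower and a median of -0.11, where 10.7% of all genes were called higher and 7.24% lower. Phf23 itself was among the 3 higher in both fits. Besides Phf23, the reader of lowest FDR, Phf20 fell (log2 -0.57 ± 0.113, limma-trend FDR = 0.00659, and -0.25 with the trend subtracted, FDR = 0.0191). Zmynd11, which is in the list but is known as a reader of H3K36 methylation, fell as well (log2 -0.46, FDR = 0.00988, and -0.26 with the trend subtracted, FDR = 0.0157). Ing2, whose PHD finger brings a SIN3 deacetylase complex to trimethylated H3K4, rose to 436.5 ± 22.9 normalised reads in the libraries labelled knockout, against 315 ± 23.4 in those labelled wild type (log2 0.47 ± 0.109, FDR = 0.0107). It was at 0.43 with the trend subtracted (FDR = 0.00712) and 0.51 with replicates 3 and 4 alone (FDR = 0.0130).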

How the data were processed

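The submitters' processing notes name STAR 2.7.1a, the mm10 build, DESeq2 1.38.3, fastp 0.23.4 and FastQC 0.12.1. For the counter, annotation, strand setting and gene filter, no source used here gives a name. The deposited signal values are gene read counts that the authors divided by 1 size factor per library: whole reads were recovered for 100% of values (tolerance 0.0001 reads). Of 15602 rows, 64 repeated another and were dropped. Symbols, coordinates, lengths and GC content come from GENCODE M21. Length is that of the longest annotated transcript, which need not be the one expressed.

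The test was limma-trend from limma 3.58.1 (R 4.3.3), with robust variance moderation, on log2(value + 1), two-sided, adjusted by Benjamini-Hochberg over 15538 genes and called at an FDR under 0.05. Every FDR is from limma-trend. Log2 fold changes are labelled knockout over wild type and are understated for low genes. EdgeR 4.0.16, limma-voom and DESeq2 1.42.0 were run on the recovered reads as alternatives. The trend with length and GC was a loess fit (span 0.3) per library. Scripts were tested on simulated data. Named genes were the 10 members, all genes of lists of up to 5, and up to 4 genes of lowest FDR of longer lists. Members and lists were chosen with earlier results of these data known. Columns outside the series numbered 0.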

Additional observations from a re-analysis of the deposited data

Results flagged for a closer look

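Kmt2c in Phf23 knockout 4 stood apart from the other libraries of its group. It had 1990 normalised reads there, against 1288, 1299 and 1404 in knockout 1 to 3, so that the gap to the nearest library was 0.835 of the group's range. Chance flags about 1 in 20 groups of this size, and 20 groups were examined. Without knockout 4 the log2 fold change of Kmt2c was -0.67 (limma-trend FDR = 0.00147).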

How the results depend on the processing

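The 4 lower and 0 higher members held with TMM scaling, library totals, a pseudocount of 0.1, a minimum mean of 10, edgeR, limma-voom and DESeq2, with 4516 to 5199 genes called in all. The replicate block gave 0 lower members and 333 genes, the length and GC trend 0 lower, 2 higher and 2780, the slope covariate 0 lower and 170, and replicates 3 and 4 alone 1 lower and 1422, against 4593. Same-numbered libraries did not vary together (correlations from -0.33 to -0.13, with 0 of 8 libraries correlating best with their own number). This cannot decide whether the numbers pair them. Length slopes were higher in knockout 3 and 4 than in knockout 1 and 2, and lower in wild type 3 and 4 than in wild type 1 and 2. Leaving out 1 library gave 1 to 6 lower members and 1884 to 5861 genes; the lowest counts were 1 without knockout 1 and 2 each without knockout 2, wild type 1 or wild type 2, and the highest 6 without knockout 4. The depth of single libraries limited no member, each having at least 473 normalised reads in every library.

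Signs that turned are on the log2 scale, and the causes were not tested. With the trend subtracted, Nsd1 was at 0.0029, Riox1 -0.031, Zmym2 0.055, Paxip1 0.12, Bod1 -0.14, Cxxc1 -0.00026, Wdr5 -0.071, Wdr82 0.072, Setd1b 0.049, Kmt2d 0.071, Kmt2c 0.15, Kmt2b 0.25 and Kdm5b 0.31. With the covariate, Rbbp5 was at 0.16, Zmym2 0.0058, Paxip1 0.029, Ncoa6 0.30, Kdm6a 0.29, Dpy30 -0.12, Kdm5c 0.14, Kmt2d 0.28, Setd1b 0.36, Phf8 0.11, Kmt2c 0.032, Kmt2b 0.36, Kmt2a 0.11, Phf21a 0.076, Eif2s3x 0.043, Kdm5b 0.31 and Riox1 -0.36. With replicates 3 and 4 alone, Kmt2b was at 0.21, Setd1b 0.18, Kdm5b 0.19, Rbbp5 0.042, Kdm6a 0.075, Ncoa6 0.11 and Riox1 -0.25. Library totals gave Wdr5 -0.035 and Ash2l -0.056, and edgeR gave Kmt2b 0.0023. Leaving out 1 library gave -0.11 to 0.068 for Kmt2b, -0.016 to 0.032 for Ash2l, -0.039 to 0.0043 for Wdr82 and -0.0077 to 0.067 for Wdr5.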

Other observations

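Other histone lysine methyltransferase genes had 2 higher and 8 lower of 19 measured, where 14.8% of all genes were called in each direction. Their median was -0.28 on the log2 scale. Subtracting the length and GC trend left 1 higher, 1 lower and a median of 0.00, where 10.7% of all genes were called higher and 7.24% lower. Nsd1, an H3K36 writer with a transcript of 12784 nt, fell as deposited (log2 -0.64, limma-trend FDR = 0.00939) and was at 0.00 with the trend subtracted. Kmt5b, an H4K20 writer, fell (log2 -0.52, FDR = 0.0126), its relative Kmt5c rose (log2 0.49, FDR = 0.00642), and both missed the threshold with the trend subtracted (log2 -0.16 and 0.20). With replicates 3 and 4 alone, Kmt5c was called (log2 0.36, limma-trend FDR = 0.0229) and Kmt5b was not (log2 -0.24, FDR = 0.196). Neither was called with the covariate (log2 0.33 for Kmt5c and -0.08 for Kmt5b, limma-trend FDR = 0.302 and 0.869). Ehmt2, the H3K9 writer G9a, rose to 4980 ± 334 normalised reads in the libraries labelled knockout, against 3743 ± 391 in those labelled wild type (SD, n = 4 each, log2 0.42, FDR = 0.0129), and was called with the trend subtracted (log2 0.28, FDR = 0.0157) but not with the covariate or replicates 3 and 4 alone (log2 0.21 and 0.23, FDR = 0.581 and 0.175).

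Other JmjC demethylase genes had 0 higher and 6 lower of 15 measured, where 14.8% of all genes were called in each direction. Their median was -0.45. With the trend subtracted 0 were higher and 4 lower, where 10.7% and 7.24% of all genes were, and the median was -0.14. Jmjd1c fell to 2159 ± 501 normalised reads in the libraries labelled knockout, against 4208 ± 836 in those labelled wild type (SD, n = 4 each, log2 -0.97, limma-trend FDR = 0.0039), and was called with the trend subtracted (log2 -0.42, FDR = 0.00146) and with replicates 3 and 4 alone (log2 -0.52, FDR = 6.76e-05), but not with the covariate (log2 -0.30, FDR = 0.35). Phf8, which is X-linked, and Kdm2b also fell (log2 -0.81 and -0.53, FDR = 0.0194 and 0.0249) and were called with the trend subtracted (log2 -0.48 and -0.36, FDR = 0.0494 and 0.0271). Both calls ended with the slope covariate (log2 0.11 and -0.02, FDR = 0.876 and 0.979) and with replicates 3 and 4 alone (log2 -0.19 and -0.24, FDR = 0.469 and 0.184). The Y-linked Uty fell as deposited (log2 -0.54, FDR = 0.0144) and was at -0.13 with the trend subtracted. Of 8 sex-linked genes, 0 rose and 5 fell, where 14.8% of all genes were called in each direction. Ddx3x and Eif2s3x were among those that fell (log2 -0.44 and -0.68). With the trend subtracted 0 of the 8 were called by limma-trend, where 10.7% of all genes were called higher and 7.24% lower. In that fit 1 of the 8 had an unadjusted limma-trend p under 0.05, and the share of all genes that did was not computed.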
